A study of Mus musculus with 28 samples.

Results

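The genes described here are 10 genes that mark oligodendrocyte precursor cells and the lineage they found: Pdgfra, Cspg4, Gpr17, Ptprz1, Vcan, Olig1, Olig2, Sox10, Lhfpl3 and Tnr. They were chosen by name, and each was found by its Ensembl ID among the 55487 gene IDs of the hippocampal count tables. Bulk polyadenylated RNA of mouse hippocampus was sequenced at 9 months of age, after behaviour tests, in 2 cohorts with 3 libraries per genotype, so 24 in all. The Ripk1 cohort holds Ripk1 D138N/D138N mice that carry the 5xFAD transgenes, 5xFAD mice, Ripk1 D138N/D138N mice and WT mice. The Zbp1 cohort holds Zbp1-/- mice with 5xFAD (KO 5xFAD), 5xFAD mice, Zbp1-/- mice (KO) and WT mice. Each mutant line had its own WT mice of shared ancestry, and the labels name no treatment. The 5xFAD line models amyloid disease through mutant human transgenes that the Thy1 promoter drives in neurons. The D138N change removes the kinase activity of RIPK1, and ZBP1 is a sensor of Z-form nucleic acids that binds RIPK1 and RIPK3. A further 4 libraries hold RNA that was bound by a ZBP1 antibody (IP) and its input, from 5xFAD and from WT.

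Oligodendrocyte precursors are glia that divide throughout adult life and differentiate into the cells that make myelin. Growth factor signalling through PDGFRA keeps them dividing, and Pdgfra and Cspg4 are switched off as they commit; GPR17 appears for a short time in committed precursors. The transcription factors OLIG1, OLIG2 and SOX10 stay on from the precursor to the myelinating cell, so their RNA also comes from mature oligodendrocytes. Several of the genes are not confined to the lineage: PTPRZ1 is abundant in astrocytes, tenascin-R (Tnr) is also made by some neurons, Cspg4 is on in pericytes and Pdgfra in fibroblasts of the meninges.

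All 10 genes were detected in every hippocampal library, the lowest value being 17.1 CPM (counts scaled to library size) for Lhfpl3 in WT library 1 of the Zbp1 cohort. Pdgfra lies between Gsx2 and Kit in the RefSeq annotation, and Olig2 lies beside Olig1. Of the 10 genes 7 matched a promoter in the RefSeq table of build GRCm38.p6, and the upstream stretch of a pair of them is printed here because Pdgfra is the gene that fell in 5xFAD of the Ripk1 cohort and Olig2 the one that tracked its neighbour Olig1. Each is the 250 bases before the annotated start, 5′ to 3′ on the plus strand, with capitals for matches to CANNTG, the letters of an E-box, which basic helix-loop-helix factors such as OLIG2 bind, or to ACAAT, a core that SOX factors bind, on either strand. These are chr5:75152001-75152250 for Pdgfra (54.4% G or C) and chr16:91225300-91225549 for Olig2 (66.8% G or C).
Pdgfra: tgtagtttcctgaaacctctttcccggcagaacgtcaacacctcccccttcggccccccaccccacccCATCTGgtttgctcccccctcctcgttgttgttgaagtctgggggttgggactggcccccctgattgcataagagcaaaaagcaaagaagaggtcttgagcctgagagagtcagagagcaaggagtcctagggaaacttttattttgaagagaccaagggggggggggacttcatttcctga
Olig2: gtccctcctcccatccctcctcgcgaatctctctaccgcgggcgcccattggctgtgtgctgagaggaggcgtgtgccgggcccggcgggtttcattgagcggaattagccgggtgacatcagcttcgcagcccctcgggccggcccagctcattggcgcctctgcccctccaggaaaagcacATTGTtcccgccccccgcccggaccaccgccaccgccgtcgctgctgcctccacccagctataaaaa
The Pdgfra stretch holds 1 match to the E-box letters and none to the SOX core. The Olig2 stretch holds 1 match to the SOX core, on the minus strand, and none to the E-box letters. The E-box letters were in 3 of the 7 stretches (Pdgfra, Lhfpl3 and Vcan) and in 66.2% of 32851 RefSeq promoter stretches of equal length. The SOX core was in 2 of the 7 (Cspg4 and Olig2) and in 27.7% of them. The other motifs searched were CAGCTG, which is one form of the E-box and so counted in it too (1 of 7, Lhfpl3, and 13.0% of all), ACAAAG (1 of 7, Tnr, and 16.5%) and GGGCGG, a site of SP1 (5 of 7 and 32.7%), each on both strands. A match is a run of letters, not a bound site.

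Whether each of the 3 libraries of a genotype is a separate animal is not in the labels, and p-values here speak of library-to-library spread alone. Totals ran from 16624325 to 44801371 counts per library in the Ripk1 cohort and from 27144481 to 34640479 in the Zbp1 cohort, except for WT library 1 with 8362348. The Zbp1 gene itself was at 0.298 to 0.35 CPM in KO 5xFAD libraries against 1.79 to 3.58 in 5xFAD, and at 0 to 0.319 CPM in KO against 0 to 0.383 in WT; a point mutation leaves no such check on Ripk1 D138N. Thy1, whose promoter the transgenes carry, was higher in 5xFAD than in WT by 2.12 ± 0.12 (SE) on the log2 scale in the Ripk1 cohort and by 1.61 ± 0.13 in the Zbp1 cohort, with every 5xFAD library above every WT library. Some libraries stood apart. The activity gene Fos was at 521 CPM in 5xFAD 1 of the Ripk1 cohort and at 25.3 CPM or less in each other library. Malat1, a nuclear RNA, was at 790 CPM in 5xFAD 2 and 993 CPM in WT 2 of the Zbp1 cohort, and at 1940 CPM or more elsewhere. Prox1, which marks granule neurons of the dentate gyrus, was at 54.2 CPM in that 5xFAD 2 and at 114 CPM or more elsewhere.

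**Figure D1:**
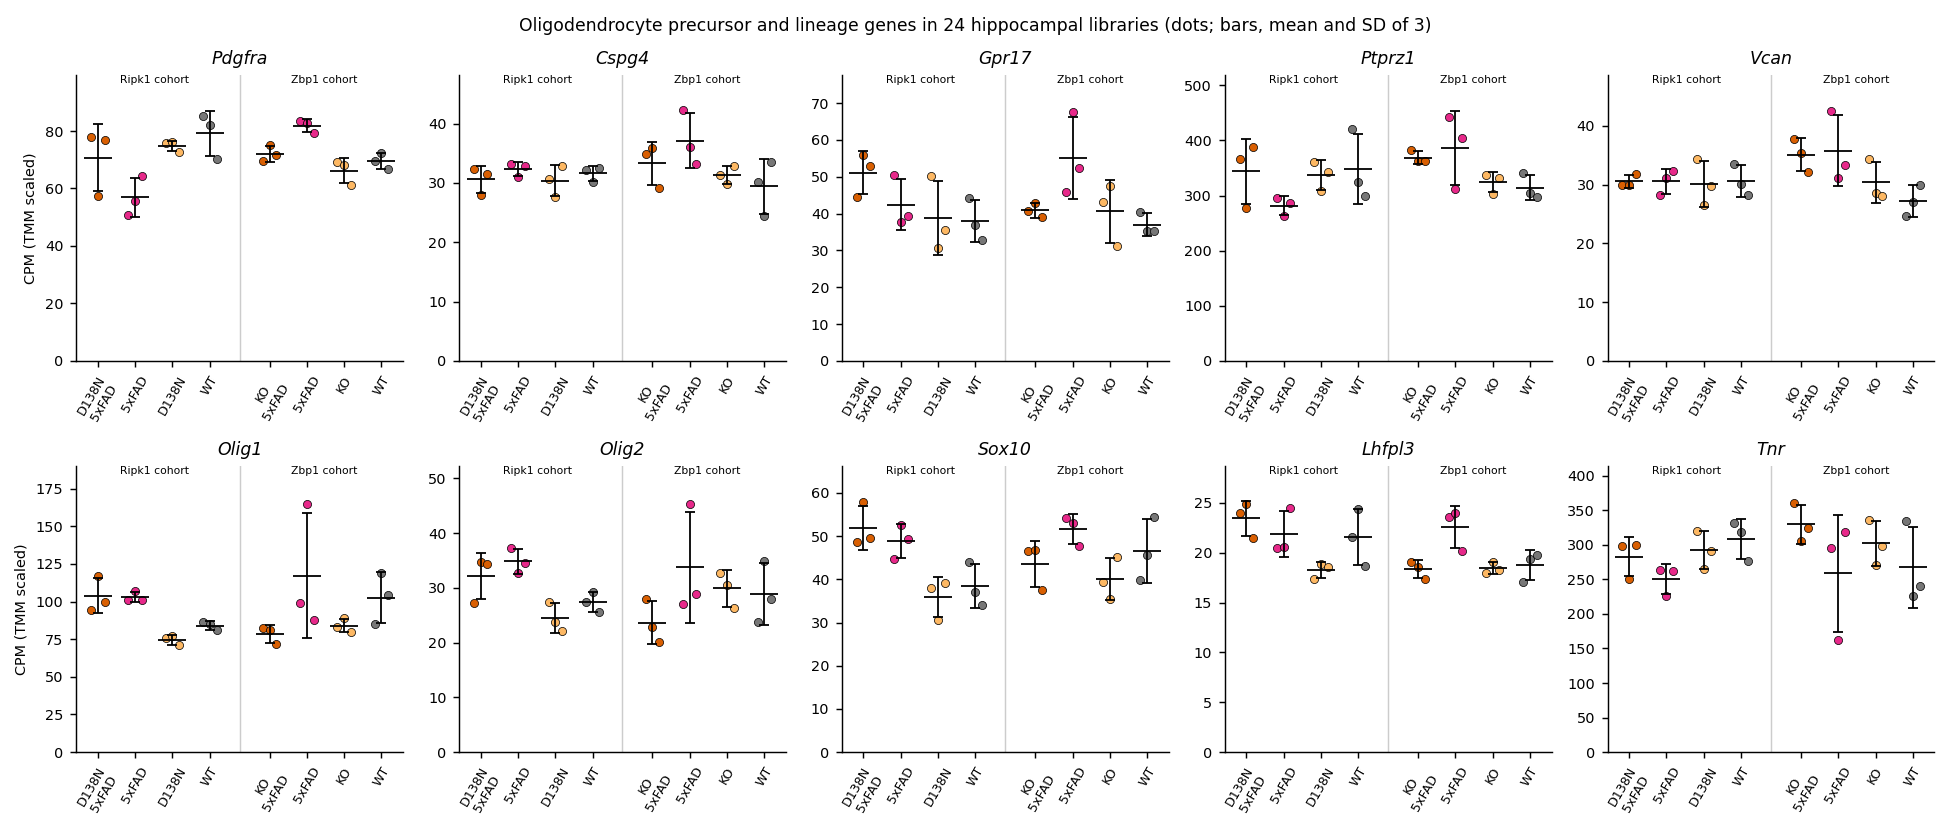
CPM (y axis, from 0, scaled within each cohort) of the 10 genes in 24 hippocampal libraries; dots are libraries, bars the mean and SD of 3, and each panel has the Ripk1 cohort left of the line and the Zbp1 cohort right of it. Pdgfra was at 50.7 to 64.3 CPM in 5xFAD of the Ripk1 cohort, below its 3 WT libraries, and at 79.3 to 83.4 CPM in 5xFAD of the Zbp1 cohort, above its 3 WT libraries.

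In 5xFAD hippocampus of the Ripk1 cohort, the precursor receptor Pdgfra fell and the lineage transcription factor Olig1 rose. They were the 2 genes called of 10, with a Benjamini-Hochberg adjusted p under 0.05 over all 21376 genes tested (edgeR quasi-likelihood test). Of all genes 16.1% were called in this comparison, 8.11% higher and 8.02% lower. Among the genes not called, Cspg4, Vcan and Lhfpl3 lay within 0.03 of 0 on the log2 scale. Ptprz1 (-0.31) and Tnr (-0.30) were lower, and Gpr17 (0.16), Olig2 (0.34) and Sox10 (0.35) higher. The libraries of the 5xFAD and WT groups did not overlap in 6 of the 10, 3 higher and 3 lower, and the same held for 34.8% of all genes, 17.7% higher and 17.1% lower. The median log2 fold change was 0.03 over the 10 genes and 0.02 over all genes, and the 10 genes lay on both sides of 0. In bulk RNA, fewer cells of a type and less RNA per cell cannot be told apart.

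Pdgfra, the receptor for the precursor mitogen PDGF-A, was at 50.7, 55.6 and 64.3 CPM in 5xFAD libraries and at 85.2, 82.2 and 70.2 CPM in WT. Every 5xFAD library was below every WT library. The mean was 56.9 ± 6.89 against 79.2 ± 7.97 CPM (SD, n = 3 each), a log2 fold change of -0.48 ± 0.12 (SE; edgeR, adjusted p = 0.0166). The call was lost without 5xFAD 1, the library of high Fos and the lowest total of its cohort (-0.40, edgeR adjusted p = 0.0643). It was also lost without 5xFAD 2 (-0.46, edgeR adjusted p = 0.0657), without WT 1 (-0.41, 0.0866) and without WT 2 (-0.45, 0.054). The authors' deposited table of 5xFAD over WT lists Pdgfra at -0.48 with an adjusted p of 0.00378, and its threshold mark for Pdgfra reads 'Not'. Fibroblast markers, another source of Pdgfra, had 0 of 8 called, with log2 fold changes of -1.33 to 0.48 (median 0.17). Their summed level was 84.9 to 97.5 CPM in 5xFAD against 75.4 to 101 CPM in WT, with no marker at 0. The part of fibroblasts in the Pdgfra values was not tested.

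Olig1, a basic helix-loop-helix factor needed for oligodendrocyte maturation and repair of myelin, was at 101, 107 and 101 CPM in 5xFAD and at 86.4, 85.0 and 80.8 CPM in WT. The groups were far apart for their spread: 103 ± 3.02 against 84.1 ± 2.87 CPM, a log2 fold change of 0.29 ± 0.08 (edgeR, adjusted p = 0.0219). That call too was lost without 5xFAD 2 (0.27, edgeR adjusted p = 0.0890), WT 1 (0.33, 0.0521), WT 2 (0.30, 0.0569) or WT 3 (0.28, 0.0645). Its chromosomal neighbour Olig2, which specifies the lineage, was at 37.3, 32.8 and 34.5 CPM in 5xFAD and at 27.5, 29.3 and 25.6 CPM in WT. Sox10, which drives the myelin genes, was at 44.8, 52.6 and 49.3 CPM in 5xFAD and at 44.1, 37.0 and 34.1 CPM in WT. Every 5xFAD library of both genes was above every WT library, but neither was called: Olig2 had 0.34 ± 0.11 (edgeR, adjusted p = 0.0522) and Sox10 0.35 ± 0.12 (adjusted p = 0.0644). DESeq2 called both (adjusted p = 0.0316 for Olig2 and 0.0332 for Sox10), and edgeR without a filter on low counts did too (0.0471 and 0.0257). The authors' deposited table lists them at 0.34 with adjusted p = 0.0493 and 0.0473, and its threshold mark for both reads 'Not'.

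Among the surface and matrix genes, Ptprz1 and Tnr lay in the direction of Pdgfra. Ptprz1, a receptor phosphatase that binds pleiotrophin, was at 295, 262 and 287 CPM in 5xFAD and at 420, 325 and 300 CPM in WT. Tnr, the matrix protein tenascin-R, was at 264, 226 and 262 CPM in 5xFAD and at 331, 319 and 276 CPM in WT. The groups did not overlap for either gene, and edgeR called neither (-0.31 ± 0.13, adjusted p = 0.138 for Ptprz1; -0.30 ± 0.10, adjusted p = 0.0552 for Tnr). DESeq2 called Tnr (adjusted p = 0.0225), as did edgeR with the replicate number as a block (0.0259), and edgeR without a filter on low counts called both Ptprz1 (0.0386) and Tnr (0.0193). Cspg4, the NG2 proteoglycan, averaged 32.3 ± 1.15 CPM in 5xFAD and 31.6 ± 1.25 CPM in WT (0.03 ± 0.09). Vcan, the hyaluronan-binding proteoglycan versican, averaged 30.6 ± 2.11 CPM in 5xFAD and 30.6 ± 2.66 CPM in WT. Lhfpl3, a tetraspan membrane protein gene used as a precursor marker, averaged 21.9 ± 2.29 CPM in 5xFAD and 21.6 ± 2.84 CPM in WT (0.02 ± 0.11). Gpr17, a receptor that holds back maturation of committed precursors, averaged 42.5 ± 6.87 CPM in 5xFAD and 38.0 ± 5.80 CPM in WT (0.16 ± 0.17; edgeR, adjusted p = 0.595). Gpr17 overlaps the gene Lims2 in the annotation, and the sources used here do not give how overlapping reads were assigned, which leaves its values uncertain; Lims2 was at 12.1 ± 0.775 CPM in 5xFAD and 9.59 ± 1.16 CPM in WT.

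Of 27 other genes of precursors and committed precursors 2 were higher and 5 lower in the same comparison, with a list median of 0.04, where 8.11% of all genes were higher and 8.02% lower. Bcas1, a marker of oligodendrocytes that are just forming myelin, rose by 0.67 ± 0.14 (edgeR, adjusted p = 0.0067), as did C1ql1, a secreted C1q-like protein of precursors (0.55 ± 0.15, 0.0255). Sox5, a factor that keeps precursors immature, fell (-0.54 ± 0.10, 0.00237), with the adhesion molecule Opcml (-0.39 ± 0.09, 0.00942) and Luzp2 (-0.44 ± 0.11, 0.0144). Of 20 genes of myelin and mature oligodendrocytes 7 were higher and 0 lower, with a median of 0.20. Trf, which encodes the iron carrier transferrin, rose by 0.93 ± 0.18 (edgeR, adjusted p = 0.00432), the tight junction gene Cldn11 by 0.68 ± 0.16 (0.0117) and the myelin gene Mobp by 0.56 ± 0.13 (0.0129). The summed level of these 20 genes was 7490 to 9370 CPM in 5xFAD against 5780 to 6880 CPM in WT.

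Of 20 ligands and receptors that act on the lineage 2 were higher and 3 lower. The growth factor gene Igf1, which supports oligodendrocyte survival, rose by 1.24 ± 0.18 (edgeR, adjusted p = 0.000473) and Mdk, the gene of midkine, a ligand of PTPRZ1, by 0.75 ± 0.20 (0.0205). The IGF1 receptor gene Igf1r fell (-0.44 ± 0.10, 0.00808), as did Cntn1, which encodes contactin-1 (-0.42 ± 0.10, 0.0108), and the BMP receptor gene Bmpr1a (-0.35 ± 0.10, 0.0371). None of 12 genes of hyaluronan matrix and perineuronal nets was called, the nearest being Bcan, the gene of brevican (-0.23 ± 0.08, edgeR adjusted p = 0.0812). Of 9 proliferation genes tested 4 were higher, among them Top2a (1.51 ± 0.37, 0.015), Aurkb (2.23 ± 0.58, 0.0191) and Cdk1 (2.22 ± 0.61, 0.0246), which any dividing cell type expresses.

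Markers of other cells moved with this comparison. Microglial markers were higher in 8 of 8, summing to 954 to 992 CPM in 5xFAD against 238 to 315 CPM in WT. Neuronal markers were lower in 4 of 10, at 6470 to 7150 against 7710 to 7940 CPM. Astrocyte markers were higher in 4 and lower in 3 of 10, at 6950 to 7370 CPM in 5xFAD against 6180 to 8160 CPM in WT. Pericyte and smooth muscle markers (0 of 10 called) summed to 294 to 360 CPM in 5xFAD against 288 to 337 CPM in WT. Choroid plexus markers (0 of 6) ran from 49.6 to 4370 CPM in 5xFAD and from 286 to 2910 CPM in WT, and neuroblast markers had 1 of 5 lower, at 64.3 to 84.1 against 77.9 to 83.8 CPM. No marker of these lists was at 0 in a 5xFAD or WT library of the Ripk1 cohort. Their part in the values of the lineage genes was not tested.

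The same transgenes on the Ripk1 D138N background gave higher values of the transcription factors and no call for Pdgfra. In D138N 5xFAD against D138N, Olig1 and Sox10 rose, 2 of 10 genes, where 3.37% of all genes were called, 3.12% of all being higher in D138N 5xFAD. The groups did not overlap for Olig1, Sox10 and Lhfpl3, 3 of 10, each higher, as for 19.2% of all genes in either direction and 11.3% higher. The median log2 fold change was 0.19 over the 10 genes and -0.01 over all genes.

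Olig1 was at 94.6, 117 and 100 CPM in D138N 5xFAD and at 75.6, 77.2 and 70.8 CPM in D138N. The log2 fold change of 0.48 ± 0.08 (edgeR, adjusted p = 0.00257) stood whichever of the 12 libraries was left out (0.40 to 0.54). Sox10 was at 48.6, 57.8 and 49.5 CPM in D138N 5xFAD and at 38.1, 30.5 and 39.1 CPM in D138N, a log2 fold change of 0.53 ± 0.12 (edgeR, adjusted p = 0.0238). The Sox10 call was lost without D138N 5xFAD 2 (0.46, edgeR adjusted p = 0.0766), without D138N 5xFAD 3 (0.57, 0.0535) and without D138N 2 (0.43, 0.0824). Olig2 averaged 32.1 ± 4.20 CPM in D138N 5xFAD and 24.5 ± 2.74 CPM in D138N (0.39 ± 0.11; edgeR, adjusted p = 0.0883). DESeq2 called Olig2 (adjusted p = 0.0317), as did edgeR without D138N 5xFAD 1 (0.50, 0.0270).

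Lhfpl3 was at 24, 24.9 and 21.5 CPM in D138N 5xFAD and at 17.4, 18.9 and 18.6 CPM in D138N, apart but not called (0.36 ± 0.11; edgeR, adjusted p = 0.128). Gpr17 averaged 51.1 ± 5.86 against 38.8 ± 10.1 CPM, with overlap (0.40 ± 0.17, adjusted p = 0.303). Pdgfra was at 78.0, 57.3 and 76.9 CPM in D138N 5xFAD and at 75.7, 76.1 and 72.7 CPM in D138N. Library D138N 5xFAD 2 was low and the rest lay together (-0.08 ± 0.12; edgeR, adjusted p = 0.844). Ptprz1, Tnr, Vcan and Cspg4 had log2 fold changes of -0.05 to 0.03.

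**Figure D2:**
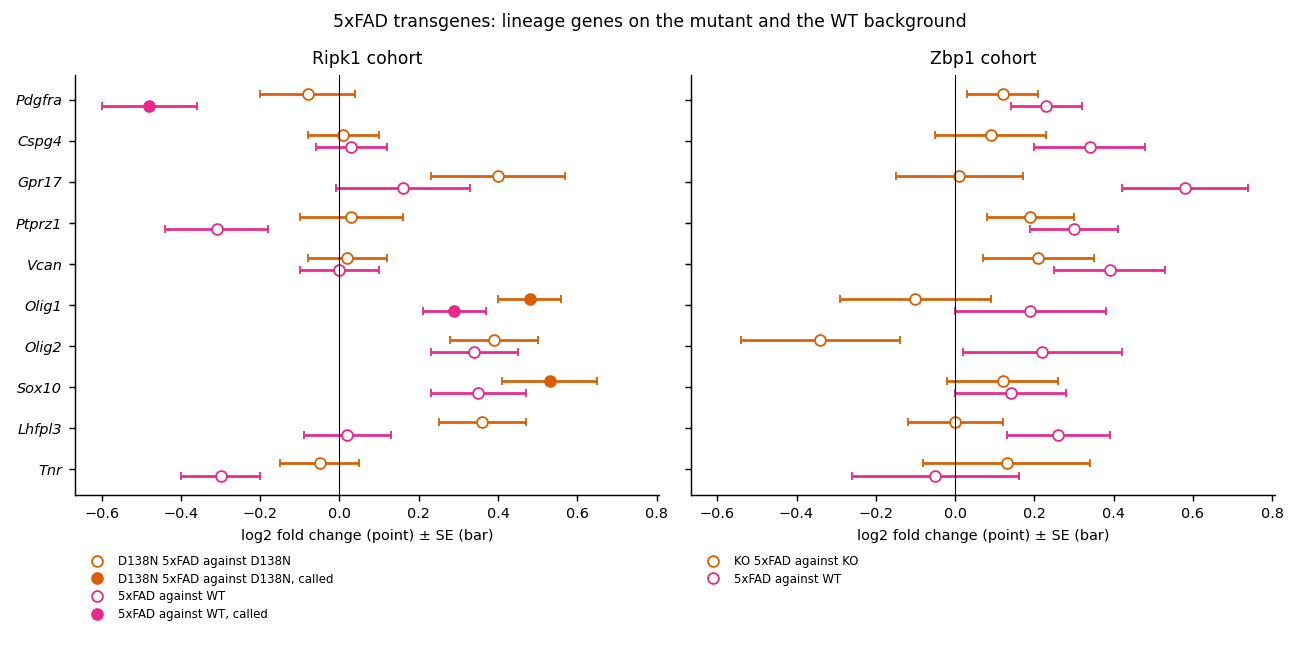
Log2 fold change (x axis; points, with bars of 1 SE) of each gene for 5xFAD carriers against non-carriers on the mutant background (orange) and the WT background (pink), in the Ripk1 cohort (left) and the Zbp1 cohort (right); filled points are called by edgeR. Filled points are Pdgfra (-0.48) and Olig1 (0.29) for 5xFAD against WT, and Olig1 (0.48) and Sox10 (0.53) for D138N 5xFAD against D138N.

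Myelin genes were higher in 13 of 20 in D138N 5xFAD against D138N and lower in 0, with a median of 0.63. Among them were the adhesion gene Mag (0.89 ± 0.14) and the enzyme gene Cnp (0.61 ± 0.09), each with an edgeR adjusted p of 0.00149. Their summed level was 8240 to 10500 CPM in D138N 5xFAD against 5200 to 6500 CPM in D138N. Of 27 genes of precursors and committed precursors 2 were higher, Bcas1 (0.74 ± 0.14, 0.00855) and Enpp6, a marker of newly formed oligodendrocytes (0.86 ± 0.18, 0.0141). Igf1 (1.36 ± 0.18, 0.000412), the lysophosphatidic acid receptor gene Lpar1 (0.59 ± 0.11, 0.00873) and the sphingosine phosphate receptor gene S1pr5 (0.65 ± 0.14, 0.0226) were the 3 called of 20 ligands and receptors. No matrix gene was called, the nearest being the protease gene Adamts9 (-0.25 ± 0.12, edgeR adjusted p = 0.391), and of the proliferation genes Top2a rose (1.97 ± 0.40, 0.0137). Microglial markers were higher in 6 of 8 (747 to 843 against 269 to 282 CPM summed). Astrocyte markers were higher in 3 and lower in 1 of 10 (7510 to 8800 against 6100 to 7130 CPM), and 0 of 10 neuronal markers was called (6750 to 7190 against 7350 to 8300 CPM); their part in the result was not tested.

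The difference between the backgrounds was itself tested, as the 5xFAD effect with D138N minus that without it. It was called for 0 of the 10 genes and for 0.0281% of all genes (edgeR). Of the 10 genes 9 had a positive point estimate, with Pdgfra at 0.40 ± 0.17 (unadjusted p = 0.0354, edgeR adjusted p = 0.656), and Lhfpl3 and Ptprz1 at 0.34 each (edgeR, adjusted p = 0.661 and 0.688). The median was 0.21 over the 10 genes and -0.01 over all genes. Positive estimates were not particular to the 10: myelin genes had 20 of 20 (median 0.39) and the other precursor genes 22 of 27 (median 0.14), with 0 called in either list. The 5 contrasts of a cohort share libraries, so these values are not independent of those above.

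Between 5xFAD groups, Ripk1 D138N made no difference that was called in these genes. In D138N 5xFAD against 5xFAD 0 of 10 was called by edgeR and 0 by DESeq2, where edgeR called 0.365% of all genes, and the libraries overlapped for all 10; they did not for 15.1% of all genes. Pdgfra averaged 70.7 ± 11.6 CPM in D138N 5xFAD and 56.9 ± 6.89 CPM in 5xFAD (0.31 ± 0.12; edgeR, unadjusted p = 0.021, adjusted p = 0.342). Here 1 library decided the call: without D138N 5xFAD 2, at 57.3 CPM, the log2 fold change was 0.44 (edgeR, adjusted p = 0.0437). Ptprz1 averaged 344 ± 58.9 against 281 ± 17.0 CPM (0.29 ± 0.13; edgeR, unadjusted p = 0.0477, adjusted p = 0.402). These were the 2 of the 10 genes with an unadjusted p under 0.05. Ptprz1 ranked 2536 of 21376 by that p, so at least 2536 of all genes were under 0.05 too. Olig1 (0.01 ± 0.08), Vcan (0.00 ± 0.10) and Cspg4 (-0.08 ± 0.09) lay nearest to 0. Of the related genes none was called; the smallest p belonged to Sox5 (0.37 ± 0.10, edgeR adjusted p = 0.202) among precursor genes, Gpr37 (0.47 ± 0.12, 0.176) among myelin genes and Notch1 (0.45 ± 0.15, 0.279) among ligands and receptors. Has3 (0.36 ± 0.24, 0.560) was nearest among matrix genes and Birc5 (-1.02 ± 0.44, 0.378) among proliferation genes. Microglial markers had 0 of 8 called, with sums of 747 to 843 CPM in D138N 5xFAD against 954 to 992 CPM in 5xFAD.

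Without the transgenes, D138N against WT gave 0 calls among the 10 genes and 0% of all genes (edgeR; DESeq2 called 0 of the 10). Olig1 was at 75.6, 77.2 and 70.8 CPM in D138N and at 86.4, 85.0 and 80.8 CPM in WT, the 1 gene of 10 without overlap, as for 7.7% of all genes in either direction and 4.11% lower. Its log2 fold change was -0.17 ± 0.08 (edgeR, unadjusted p = 0.0458, adjusted p = 1), and no other of the 10 had an unadjusted p under 0.05. By that p over all 21376 genes Olig1 ranked 468, and Lhfpl3 (0.0575) ranked 627. None of the related genes was called. Among the precursor, ligand and receptor, matrix and proliferation lists the smallest p were those of Itpr2 (-0.15 ± 0.08), Lpar1 (-0.22 ± 0.11), Hapln4 (0.13 ± 0.10) and Top2a (-1.06 ± 0.41), each with an edgeR adjusted p of 1. Of the 20 myelin genes 0 was called and 0 had a positive point estimate, at a median of -0.20, and their sum was 5200 to 6500 CPM in D138N against 5780 to 6880 CPM in WT.

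**Figure D3:**
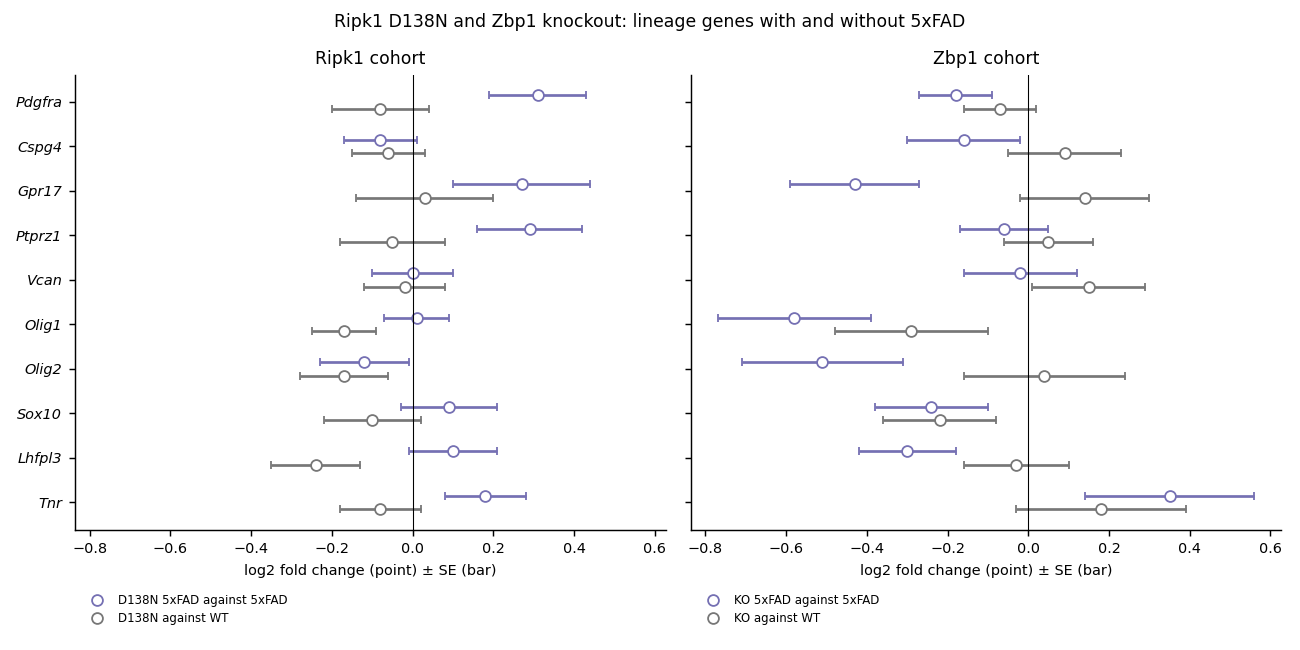
Log2 fold change (x axis; points, with bars of 1 SE) of each gene for mutant 5xFAD against 5xFAD (purple) and for mutant against WT (grey), in the Ripk1 cohort (left) and the Zbp1 cohort (right). No point is filled, since edgeR called 0 of the 10 genes in each of these comparisons.

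In the Zbp1 cohort no lineage gene was called in 5xFAD against WT, and Pdgfra lay above WT in every 5xFAD library. edgeR called 0 of the 10 genes, where 3.13% of 21274 genes were called. Of the 10 genes 5 had an unadjusted p under 0.05 and DESeq2 called 1, Gpr17. By unadjusted edgeR p over all genes, Cspg4 (0.0306) ranked 1996 and Lhfpl3 (0.0544) ranked 2670 of 21274. At least 1996 and fewer than 2670 of the 21274 genes were thus under 0.05. The 10 genes were measured in the same libraries, and the 5 were not tested as a set. The groups did not overlap for Pdgfra, Gpr17, Vcan and Lhfpl3, 4 of 10, each higher in 5xFAD, as for 13.7% of all genes in either direction and 8.28% higher. The median log2 fold change was 0.25 over the 10 genes and 0 over all genes, with 9 of 10 point estimates positive.

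Gpr17 was at 45.8, 67.5 and 52.3 CPM in 5xFAD and at 40.5, 35.2 and 35.2 CPM in WT. Library 5xFAD 2, one of the 2 of low Malat1, was highest. The log2 fold change was 0.58 ± 0.16 (adjusted p = 0.0820 in edgeR and 0.0226 in DESeq2). The authors' deposited table lists 0.58 with an adjusted p of 0.0125, and its threshold mark for Gpr17 reads 'Not'. Without 5xFAD 2 the log2 fold change was 0.42 (edgeR, adjusted p = 0.14). edgeR called Gpr17 without KO 3 (0.59, adjusted p = 0.0420). Lims2, which overlaps Gpr17, averaged 11.4 ± 4.44 CPM in 5xFAD and 9.61 ± 2.08 CPM in WT (0.22 ± 0.25).

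Pdgfra was at 83.4, 82.9 and 79.3 CPM in 5xFAD and at 69.6, 72.5 and 66.9 CPM in WT. The groups were narrow and apart (0.23 ± 0.09; edgeR, unadjusted p = 0.0176, adjusted p = 0.244). Vcan was at 42.6, 31.2 and 33.4 CPM in 5xFAD and at 24.6, 27.1 and 30.0 CPM in WT (0.39 ± 0.14; edgeR, adjusted p = 0.227). Lhfpl3 averaged 22.6 ± 2.09 CPM in 5xFAD and 18.8 ± 1.44 CPM in WT (0.26 ± 0.13; edgeR, adjusted p = 0.434). Cspg4 averaged 37.1 ± 4.61 against 29.4 ± 4.68 CPM with overlap (0.34 ± 0.14, adjusted p = 0.326). Without 5xFAD 2 the log2 fold changes were 0.22 for Pdgfra, 0.47 for Vcan, 0.22 for Lhfpl3 and 0.36 for Cspg4, none of them called by edgeR (adjusted p = 0.0718 for Vcan, the lowest of these).

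Ptprz1 was at 443, 311 and 405 CPM in 5xFAD and at 341, 304 and 298 CPM in WT. Library 5xFAD 2 lay within the WT range and the others above it (0.30 ± 0.11; edgeR, adjusted p = 0.267). Without 5xFAD 2 the gene was called (0.43, edgeR adjusted p = 0.00694), and it was called with both libraries of low Malat1 left out (0.42, 0.00968). Olig1 was at 98.8, 165 and 87.9 CPM in 5xFAD and at 84.8, 119 and 104 CPM in WT, the highest of each group being the library of low Malat1. Its log2 fold change was 0.19 ± 0.19 with all libraries, and -0.14 without 5xFAD 2 (edgeR, adjusted p = 0.812 and 0.6). Olig2 (0.22 ± 0.20) likewise had -0.06 without that library, and Tnr, at 162 CPM there against 296 and 318 CPM in the other 5xFAD libraries, had -0.05 ± 0.21 with it and 0.20 without it. Sox10 averaged 51.6 ± 3.50 CPM in 5xFAD and 46.6 ± 7.36 CPM in WT (0.14 ± 0.14; edgeR, adjusted p = 0.796).

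Few related genes were called in this cohort. Tns3, a gene of newly formed oligodendrocytes, rose by 0.48 ± 0.09 (edgeR, adjusted p = 0.00773), 1 of 27 genes of precursors and committed precursors. Trf rose by 0.87 ± 0.14 (0.00142), 1 of 20 myelin genes, whose sum was 7810 to 8190 CPM in 5xFAD against 5520 to 7900 CPM in WT. Igf1 (1.80 ± 0.23, 0.000324) and Fgf2, the gene of a growth factor for precursors (0.70 ± 0.18, 0.0499), were the 2 called of 20 ligands and receptors, and of the proliferation genes Top2a rose (2.54 ± 0.33, 0.000383). No matrix gene was called, the nearest being Has2 (2.01 ± 0.81, edgeR adjusted p = 0.298), which was at 0 in at least 1 WT library. Microglial markers were higher in 7 of 8 (811 to 1410 against 283 to 361 CPM summed) and astrocyte markers in 4 of 10 (7650 to 11300 against 5420 to 7470 CPM). Neuronal markers were lower in 1 of 10 (6190 to 6790 against 7630 to 7760 CPM). Pericyte (293 to 357 against 279 to 306 CPM) and fibroblast markers (46.3 to 105 against 51.8 to 98.8 CPM) had 0 of 10 and 0 of 8 called. The part of these cells in the result was not tested.

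Pdgfra thus lay below WT in every 5xFAD library of one cohort and above WT in every 5xFAD library of the other. The difference between the cohorts was tested in a fit of all 24 libraries, as the 5xFAD effect in the Ripk1 cohort minus that in the Zbp1 cohort. For Pdgfra it was -0.72 ± 0.15 (edgeR, unadjusted p = 7.11e-05, adjusted p = 0.237) and for Ptprz1 -0.61 ± 0.18 (unadjusted p = 0.00244, adjusted p = 0.360). edgeR called 0 of 22565 genes, with 2063 at an unadjusted p under 0.05 and 26 called by DESeq2, Pdgfra among them (adjusted p = 0.013). Without 5xFAD 2 of the Zbp1 cohort edgeR called Pdgfra (-0.71, adjusted p = 0.0304) and Ptprz1 (-0.75, 0.0317), among 593 genes in all. Vcan had -0.39 ± 0.17 (edgeR, unadjusted p = 0.0326, adjusted p = 0.506). Olig1 (0.10 ± 0.22), Olig2 (0.12 ± 0.24) and Sox10 (0.20 ± 0.19) lay nearest to 0, and without 5xFAD 2 of the Zbp1 cohort Olig1 was at 0.43, Olig2 at 0.40 and Sox10 at 0.22. What was particular to a cohort, from ancestry to library preparation, cannot be told apart in this difference.

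With Zbp1 knockout on the 5xFAD background 9 of the 10 point estimates were negative, none of them called. Vcan (-0.02) and Ptprz1 (-0.06) lay near 0 and reached 0.12 and 0.04 with 1 library left out. All 10 genes were measured in the same libraries. In KO 5xFAD against 5xFAD edgeR called 0 of 10 and 0% of 21274 genes, with 4 of the 10 at an unadjusted p under 0.05. By unadjusted edgeR p over all genes, Lhfpl3 (0.0314) ranked 1261 and Pdgfra (0.0502) ranked 1883. At least 1261 and fewer than 1883 of the 21274 genes were thus under 0.05. DESeq2 called 0 of the 10 and 151 genes in all. The groups did not overlap for Pdgfra, Gpr17, Olig1, Sox10 and Lhfpl3, 5 of 10, each lower in KO 5xFAD, as for 14.3% of all genes in either direction and 7.88% lower. The median log2 fold change was -0.21 over the 10 genes and -0.01 over all genes.

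Olig1 was at 82.3, 81.0 and 71.5 CPM in KO 5xFAD and at 98.8, 165 and 87.9 CPM in 5xFAD (-0.58 ± 0.19; edgeR, adjusted p = 0.468). Much of the difference came with 1 library: without 5xFAD 2 it was -0.25 (edgeR, adjusted p = 0.981). Olig2 averaged 23.6 ± 3.97 CPM in KO 5xFAD and 33.8 ± 10.1 CPM in 5xFAD (-0.51 ± 0.20, or -0.24 without 5xFAD 2). Gpr17 was at 40.7, 42.9 and 39.0 CPM in KO 5xFAD and at 45.8, 67.5 and 52.3 CPM in 5xFAD (-0.43 ± 0.16; edgeR, adjusted p = 0.522, or -0.26 without 5xFAD 2). Its partner Lims2 had -0.50 ± 0.25 there. Pdgfra was at 69.4, 75 and 71.8 CPM in KO 5xFAD and at 83.4, 82.9 and 79.3 CPM in 5xFAD (-0.18 ± 0.09; edgeR, adjusted p = 0.566). Lhfpl3 averaged 18.4 ± 0.863 against 22.6 ± 2.09 CPM (-0.30 ± 0.12; edgeR, adjusted p = 0.529) and Sox10 43.6 ± 5.28 against 51.6 ± 3.50 CPM (-0.24 ± 0.14, 0.624). Without 5xFAD 2 these were -0.17 for Pdgfra, -0.25 for Lhfpl3 and -0.22 for Sox10. Tnr was the 1 gene with a positive value (0.35 ± 0.21, or 0.10 without 5xFAD 2).

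No related gene was called in that comparison. The smallest p per list were those of Neu4, a sialidase gene of precursors (-0.48 ± 0.15, edgeR adjusted p = 0.442), Trf (-0.43 ± 0.13, 0.463), Igf1 (-0.53 ± 0.22, 0.526), Tnc (0.75 ± 0.31, 0.526) and Top2a (-0.86 ± 0.30, 0.510). The myelin genes summed to 5690 to 7100 CPM in KO 5xFAD against 7810 to 8190 CPM in 5xFAD, without overlap and with 0 of 20 called. Microglial markers summed to 565 to 696 CPM in KO 5xFAD against 811 to 1410 CPM in 5xFAD, with 0 of 8 called, and neuronal markers to 6720 to 7280 against 6190 to 6790 CPM, with 0 of 10 called. Their part in the values was not tested.

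In KO 5xFAD against KO, edgeR called 0 of the 10 genes and DESeq2 0, where edgeR called 1.23% of all genes. Pdgfra (72.0 ± 2.80 against 66.2 ± 4.28 CPM; 0.12 ± 0.09, edgeR adjusted p = 0.922) and Ptprz1 (369 ± 11.3 against 324 ± 18.7 CPM; 0.19 ± 0.11, 0.860) did not overlap, 2 of 10, as for 21.4% of all genes in either direction and 10.8% higher. Gpr17 had 0.01 ± 0.16 and Olig2 -0.34 ± 0.20 (edgeR, adjusted p = 0.843). Of the related genes Trf (0.82 ± 0.14, edgeR adjusted p = 0.00568) and Igf1 (1.07 ± 0.22, 0.0295) rose. Tns3 (0.31 ± 0.09, 0.193), Adamts1 (0.75 ± 0.21, 0.163) and Top2a (0.92 ± 0.31, 0.289) had the smallest p of their lists. Microglial markers were higher in 6 of 8 (565 to 696 CPM summed in KO 5xFAD against 243 to 254 CPM in KO) and astrocyte markers in 2 of 10 (8230 to 9380 against 6370 to 7040 CPM). Neuronal markers had 0 of 10 called (6720 to 7280 against 7630 to 8040 CPM). Choroid plexus markers had 0 of 6 called with 6 of 6 positive (350 to 2770 against 125 to 1320 CPM); the part of these cells in the values was not tested.

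In KO against WT edgeR called 0 of 10 and 0% of all genes, DESeq2 0 of 10, all 10 genes overlapped (11.8% of all genes did not), and none had an unadjusted p under 0.05; the log2 fold changes ran from -0.29 (Olig1) to 0.18 (Tnr). No related gene was called there. Among the precursor, ligand and receptor, matrix and proliferation lists the smallest p were those of Neu4 (-0.31 ± 0.15), S1pr5 (-0.31 ± 0.18), Has3 (0.69 ± 0.40) and Birc5 (1.52 ± 0.63), each with an edgeR adjusted p of 0.942. Of the 20 myelin genes 0 was called, at a median of -0.07, and their sum was 6010 to 6560 CPM in KO against 5520 to 7900 CPM in WT. The 5xFAD effect with the knockout minus that without it was called for 0 of the 10 genes and 0% of all genes (edgeR). Its unadjusted p was lowest for Gpr17 (-0.57 ± 0.23; unadjusted p = 0.0252, adjusted p = 1), and it was -0.41 without 5xFAD 2.

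The 10 genes did not vary as 1 unit between libraries of the same genotype. With the mean of each genotype and cohort taken away, the SD of log2 CPM within groups was lowest for Lhfpl3 (0.12) and Pdgfra (0.13) and highest for Gpr17 (0.24) and Tnr (0.25), against a median of 0.20 over all genes compared. Over the 24 libraries, Pearson's r of log2 CPM was 0.84 between Olig1 and Olig2 (0.72 over the 22 libraries without the 2 of low Malat1) and 0.79 between Ptprz1 and Tnr (0.75). It was -0.86 between Olig1 and Tnr (-0.73) and -0.61 between Olig1 and Ptprz1 (-0.48). Of the 45 pairs 5 reached at least 0.5 and 3 at most -0.5, at a median of 0.06. The libraries of a pair share their depth and dissection, so these are descriptions.

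**Figure D4:**
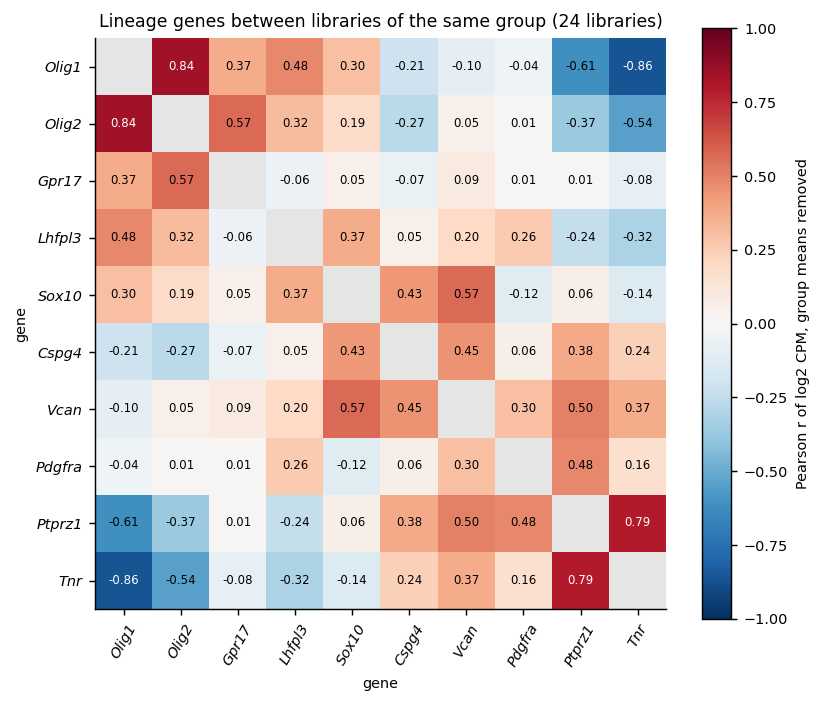
Pearson r of log2 CPM for each pair of the 10 genes over 24 libraries after the mean of each genotype and cohort is taken away (red, positive; blue, negative). Olig1 and Olig2 (0.84) and Ptprz1 and Tnr (0.79) form the darkest red cells, and Olig1 with Tnr (-0.86) the darkest blue cell.

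Several of these patterns ran along the lines of other lists. Sox10 followed the sum of the myelin genes (r = 0.80, also 0.80 over the 22 libraries without the 2 of low Malat1) and Ptprz1 the sum of the astrocyte markers (0.82, or 0.83 over the 22). Tnr had 0.75 with the astrocyte markers (0.65 over the 22) and 0.80 with the neuroblast markers (0.64). Olig1 had -0.61 with the astrocyte markers (-0.38) and -0.73 with the neuroblast markers (-0.49). Malat1 had r = 0.76 with Tnr and -0.77 with Olig1 (0.58 and -0.52 without the 2 libraries of low Malat1), and -0.12 with Pdgfra. The genes most like each of the 10, among 16311 candidates of at least 1 CPM, were Ssbp2 (0.85), Cntnap3 (0.83) and Parm1 (0.80) for Pdgfra and Txn2 (0.96), Snx17 (0.95) and Mrpl30 (0.95) for Olig1. Ank2 (0.97), Cacna1e (0.96) and Cdc42bpa (0.96) were most like Tnr, and Neo1 (0.94), Slc4a4 (0.91) and Pank3 (0.89) most like Ptprz1. For Olig2 they were Fam149b (0.88), Emc2 (0.87) and Olig1 (0.84), and for Sox10 1700063D05Rik (0.89), Rassf2 (0.88) and Spg20 (0.83). Zfr2 (0.85), Ccdc116 (0.80) and Kif21b (0.80) were most like Cspg4, and Lrfn2 (0.85), Rbm14 (0.82) and Zbtb40 (0.81) most like Gpr17. Scarb2 (0.80), Zfp141 (0.78) and Pik3r5 (0.78) were most like Vcan, and Slc16a14 (0.80), Efnb3 (0.79) and Zcchc12 (0.78) most like Lhfpl3. These likeness values are the highest among 16311 candidates over all 24 libraries. They were not recomputed without the 2 libraries of low Malat1 and are descriptions only.

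The IP and input libraries of ZBP1 held few reads of the lineage genes, 5 to 117 counts per gene and library. There was 1 library of each kind and hence no test. In 5xFAD the median ratio of IP to input CPM over 20770 gene entries with at least 10 input counts was 0.734, and 6 of the 10 genes lay above it; in WT the median over 20137 entries was 0.860, and 2 lay above it. Pdgfra had a ratio of 0.850 in 5xFAD (95% counting interval 0.6 to 1.19) and 0.898 in WT (0.632 to 1.27). Gpr17 had 0.360 in 5xFAD (0.184 to 0.656) and 0.701 in WT (0.344 to 1.36). Cspg4 had 0.539 in 5xFAD (0.336 to 0.845) and 0.994 in WT (0.655 to 1.49). The interval of Gpr17 in 5xFAD lay below the median ratio of all entries, and those of the other 9 genes in 5xFAD, and of all 10 in WT, spanned the median of their genotype. The lowest 10% of the 5xFAD entries lay at or below 0.425, and Gpr17, with 54 input counts, was among them. Over the 635 entries with at least 100 input counts the lowest 10% lay at or below 0.561. Zbp1 itself had 50 IP counts against 25 input counts in 5xFAD and 53 against 26 in WT. The intervals are exact and cover counting error only.

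**Figure D5:**
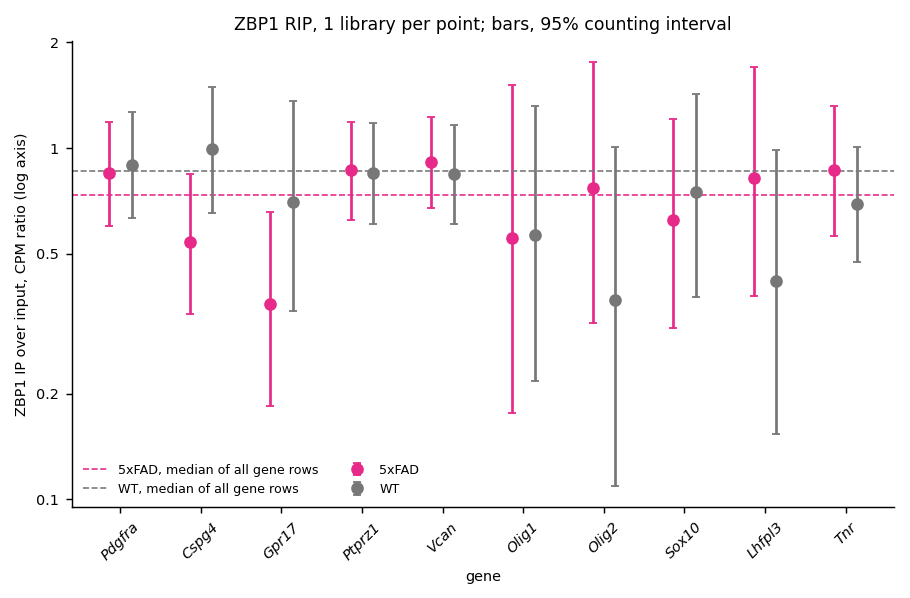
Ratio of ZBP1 IP to input CPM (y axis, log scale) of the 10 genes in 5xFAD (pink) and WT (grey), 1 library of each kind; bars are 95% counting intervals and dashed lines the median of all gene entries with at least 10 input counts. Gpr17 in 5xFAD (0.360) is the point whose interval lies below its dashed line.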

How the data were processed

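Gene-level counts of 24 hippocampal polyadenylated RNA libraries and of 4 libraries of the ZBP1 immunoprecipitation were used as the authors deposited them. The submitters' processing notes name HISAT2, DESeq2 1.42.1 and edgeR 4.0.16, and both mouse builds mm10 and mm39 with no role, so no coordinates of the counted gene models are given; the promoter stretches carry the coordinates of RefSeq's GRCm38.p6. No source used here states the strand setting or the counting rules. The authors' deposited tables of comparisons hold log2 fold changes, p-values and a threshold mark, and their values are quoted only where named. The mark reads 'Not' for all 10 genes in every such comparison, and its rule is not given here. Of 55487 gene IDs 55141 matched a symbol.

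Each cohort was fitted with edgeR 4.0.16 in R 4.3.3 (quasi-likelihood test, TMM scaling, filterByExpr by genotype, 1 mean per genotype over 12 libraries), with Benjamini-Hochberg adjustment over 21376 genes (Ripk1 cohort) or 21274 genes (Zbp1 cohort); all 10 genes passed the filter in both. A gene was called at an adjusted p under 0.05. CPM were scaled by TMM within a cohort, so levels are not compared between cohorts or, without gene lengths, between genes. The difference between cohorts came from 1 fit of all 24 libraries. DESeq2 1.42.0, RLE scaling, no filter on low counts, a replicate block, only the groups compared, and leaving out each library were the alternatives. The procedure was tested on simulated counts for 5xFAD against WT, with 50 genes drawn from all tested genes at each fold. At a fold of 1.25 it recovered 2 of 50 in the Ripk1 cohort and 0 of 50 in the Zbp1 cohort. At a fold of 2 it recovered 20 of 50 in each. The drawn genes were of any level that passed the filter, so recovery for the 10 genes themselves was not measured. A gene that was not called is not shown to be unchanged. Correlations used log2(CPM + 0.5) with genotype means removed. Total counts of the immunoprecipitates were 6808879 (IP) and 9444018 (input) in 5xFAD, and 5742746 (IP) and 8911548 (input) in WT; the 95% intervals of the ratios are exact for counting error. Named genes were all 10 genes in each comparison and, from each list, at most 3 called genes per direction with the smallest p, or the 1 with the smallest p where none was called, except for an item that is not reported here; the 3 most alike genes were those of the highest Pearson r. The genes and the lists were chosen with earlier results of these data known.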

Additional observations from a re-analysis of the deposited data

Results flagged for a closer look

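The point estimate of the 5xFAD effect on Pdgfra was negative in the Ripk1 cohort (-0.48) and positive in the Zbp1 cohort (0.23). edgeR called the former, but neither the latter (adjusted p = 0.244) nor the difference between the cohorts. Every 5xFAD library was below every WT library in the Ripk1 cohort (50.7 to 64.3 against 70.2 to 85.2 CPM). In the Zbp1 cohort every 5xFAD library was above every WT library (79.3 to 83.4 against 66.9 to 72.5 CPM). The groups did not overlap for 34.8% of all genes in the Ripk1 cohort (17.1% lower) and for 13.7% in the Zbp1 cohort (8.28% higher). The difference of the log2 fold changes, Ripk1 cohort minus Zbp1 cohort, was -0.72 ± 0.15 (edgeR, adjusted p = 0.237 over 22565 genes; DESeq2, adjusted p = 0.013). The cohorts differ in ancestry and in anything handled by cohort, which cannot be told apart here.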

How the results depend on the processing

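Of the values of single genes under the alternatives 1774 kept their direction and side of the threshold, 34 passed it, 11 lost their call and 61, of 29 results, changed sign; 0 of these 61 were called. Without a filter on low counts edgeR called 6 of the 10 genes in 5xFAD against WT of the Ripk1 cohort, and DESeq2 5, against 2 with the filter in edgeR. The share of all genes called under each of these alternatives is not given here. The 6 and 5 are therefore no result about the lineage genes as a set. In the Zbp1 cohort, 5xFAD against WT gave 1 call (Gpr17) with DESeq2, without the filter and with the replicate block, and 1 (Ptprz1) with both libraries of low Malat1 left out, an alternative chosen after seeing the data, against 0. KO 5xFAD against 5xFAD gave 1 call without the filter (Olig1, -0.58, edgeR adjusted p = 0.000504). The difference between cohorts gave 1 with DESeq2 and 2 without the filter. Leaving out 1 library gave 0 to 5 calls in 5xFAD against WT of the Ripk1 cohort, 0 to 1 in D138N 5xFAD against 5xFAD, 1 to 3 in D138N 5xFAD against D138N, 0 to 1 in 5xFAD against WT of the Zbp1 cohort and 0 to 2 in the difference between cohorts. The cause was not tested.

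The labels do not say what a replicate number marks. Same-numbered libraries correlated at -0.40 to 0.44 in the Ripk1 cohort and -0.20 to 0.60 in the Zbp1 cohort, against -0.49 to 0.37 and -0.57 to 0.34 for different numbers, and 7 of 12 in each correlated best with their own number, a hint from the data alone; the libraries were treated as unpaired. With the replicate block Gpr17 was called in 5xFAD against WT of the Zbp1 cohort (0.57, edgeR adjusted p = 0.0397) and Tnr in the Ripk1 cohort (-0.30, 0.0259). Interactions were not refitted with only the groups compared, since they need all 4 groups.

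Counts over all genes moved more. DESeq2, no filter and leaving out 1 library gave 278, 387 and 14 to 673 in D138N 5xFAD against 5xFAD (78 in edgeR), 75, 145 and 0 to 31 in the Ripk1 interaction (6), 1034, 1030 and 413 to 1103 in 5xFAD against WT of the Zbp1 cohort (665), 151, 498 and 0 to 82 in KO 5xFAD against 5xFAD (0), 495, 628 and 123 to 387 in KO 5xFAD against KO (261) and 26, 188 and 0 to 593 in the difference between cohorts (0). In 5xFAD against WT of the Ripk1 cohort, leaving out 1 library gave 1757 to 4117 (3449). DESeq2 gave 1211 in D138N 5xFAD against D138N (721), and no filter gave 94 in KO against WT (0) and 29 in the Zbp1 interaction (0). Only the groups compared gave 339 in 5xFAD against WT of the Zbp1 cohort and 877 in KO 5xFAD against KO, and the replicate block 41 in KO 5xFAD against 5xFAD. Counts of 5 to 117 per gene in the IP and input libraries limit the immunoprecipitation.

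The sign changes came with leaving out libraries, and the ranges over single libraries left out were these, in log2 fold change. In 5xFAD against WT they were -0.07 to 0.12 for Lhfpl3 (Ripk1 cohort), -0.14 to 0.36 for Olig1, -0.06 to 0.38 for Olig2 and -0.22 to 0.20 for Tnr (each Zbp1 cohort). In D138N against WT they were -0.14 to 0.11 for Ptprz1, -0.12 to 0.06 for Vcan, -0.18 to 0.01 for Sox10, -0.19 to 0.17 for Gpr17 and -0.11 to 0.01 for Cspg4. In D138N 5xFAD against D138N they were -0.05 to 0.08 for Cspg4, -0.07 to 0.17 for Ptprz1, -0.16 to 0.06 for Pdgfra, -0.11 to 0.04 for Tnr and -0.07 to 0.13 for Vcan, and in D138N 5xFAD against 5xFAD -0.09 to 0.08 for Olig1. The Ripk1 interaction gave -0.07 to 0.11 for Vcan, -0.08 to 0.04 for Cspg4 and -0.03 to 0.15 for Olig2. The Zbp1 interaction gave -0.15 to 0.08 for Sox10, -0.46 to 0.04 for Olig1 and -0.08 to 0.34 for Tnr. KO 5xFAD against 5xFAD gave -0.20 to 0.04 for Ptprz1 and -0.11 to 0.12 for Vcan, KO 5xFAD against KO -0.15 to 0.14 for Gpr17, and KO against WT -0.07 to 0.21 for Olig2, -0.03 to 0.21 for Cspg4 and -0.09 to 0.01 for Lhfpl3. The difference between cohorts gave -0.08 to 0.43 for Olig1 and -0.05 to 0.40 for Olig2. With both libraries of low Malat1 left out, 5xFAD against WT of the Zbp1 cohort gave -0.01 for Olig1 and 0.11 for Tnr, KO against WT -0.03 for Cspg4 and the Zbp1 interaction 0.01 for Sox10.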
